A study of Mus musculus with 111 samples.

Results

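The genes described here encode components and receptors of complement, the set of plasma proteins that tags microbes, immune complexes and dying cells for removal. They were chosen as C1qa, C1qb, C1qc, C3, C3ar1, C4b, C5ar1, Cfb and Cfp, through every probeset annotated to 1 of these 9 genes only. Of the 9, 7 had such a probeset, 12 probesets in all, among the 15707 genes and 27871 probesets of 1 gene on the arrays. C3 and C4b were not analysed here.

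The samples were lungs of young adult male C57BL6/J mice, 1 mouse per Affymetrix array. Bleomycin mice had received a single intratracheal spray of bleomycin, an antibiotic that breaks DNA, at 2 U/kg in 50 µl, and saline mice 50 µl of saline. Mice were killed 1 or 2 days, 7 or 14 days, or 21, 28 or 35 days after that dose, from 8 mice of each treatment on each day, except for 7 saline mice on day 14 because the authors had removed 1 array after a principal component analysis. In all, 56 bleomycin and 55 saline mice were analysed. Both lungs were homogenized whole, and more cells of a type cannot be told apart from more RNA per cell. The question of each comparison was how bleomycin mice differed from the saline mice of their day and whether that difference changed with time. Levels are the authors' RMA values on a log2 scale, so that 1 unit is a 2-fold difference, and levels of different genes are not comparable because each probeset has its own affinity. Differences are bleomycin minus saline on the same scale, with the standard error (SE) and the Benjamini-Hochberg adjusted p of limma, a linear model fitted over all genes. A gene rose or fell where the adjusted p was under 0.05.

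C1q, made of the A, B and C chains encoded by C1qa, C1qb and C1qc, is the recognition molecule of the classical pathway and, unlike most complement proteins, is made mainly by macrophages and dendritic cells. In the alternative pathway factor B (Cfb) supplies the protease of the C3 convertase, and properdin (Cfp) stabilizes that enzyme. Cleavage of C3 and C5 frees the peptides C3a and C5a, which act on the receptors encoded by C3ar1 and C5ar1 on macrophages, neutrophils and other cells.

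Both arrays of day 21 that carry replicate number 4 stood apart. In the library labelled bleomycin, Mmp12, a macrophage elastase gene, was at 7.62, against 10.74 to 12.10 in the other bleomycin mice and 7.02 to 8.10 in the saline mice of that day, and C1qb was at 9.96, against 9.88 to 10.25 in the other saline mice. The library labelled saline had Mmp12 at 7.02, below the other saline mice, but its C1qa, C1qb, C1qc, C3ar1 and Cfb levels (11.59, 11.56, 11.53, 9.53 and 11.47) lay among those of bleomycin mice. Both were kept under their labels, and differences and counts of the 7 genes that use day 21 are given with and without them. On day 2 the bleomycin mice with replicate numbers 5 and 8 lay within or below the range of saline mice for C1qa, C1qb, C1qc, C3ar1, C5ar1 and Cfb.

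Of the 7 genes 6 rose on days 2, 7, 14 and 21, and the remaining gene, Cfp, took another course. The genes were chosen with earlier results of these data known. Counts set beside shares of all genes, here and below, are therefore descriptions and not tests. On day 1 only Cfb and Cfp had risen, 2 of 7 genes against 14.7% of all genes. On day 2, 6 of 7 rose, against 14.2% of all genes, and on day 7, 6 rose and 1 fell, against 25.7% and 21.9%. The count of genes that rose stayed at 6 on day 14 (21.9% of all genes) and on day 21 (20.5%) and was 5 on day 28 (11.5%) and day 35 (16.9%). Increases over 2-fold were seen in 0, 2, 5, 4, 4, 2 and 4 of the 7 genes on the 7 days in turn, against 0.376%, 0.949%, 2.85%, 2.41%, 1.14%, 0.573% and 0.649% of all genes. Without both arrays of replicate number 4 the day 21 counts were the same, 6 that rose and 4 over 2-fold. The count of 4 on day 35 was 2 without the bleomycin mouse of replicate number 3. The median difference of the 7 genes was 0.32, 0.69, 1.84, 1.65, 1.04, 0.81 and 1.03 on these days, whereas that of all genes lay between -0.01 and 0.02. For day 21 it was 1.37 without both arrays.

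**Figure D1:**
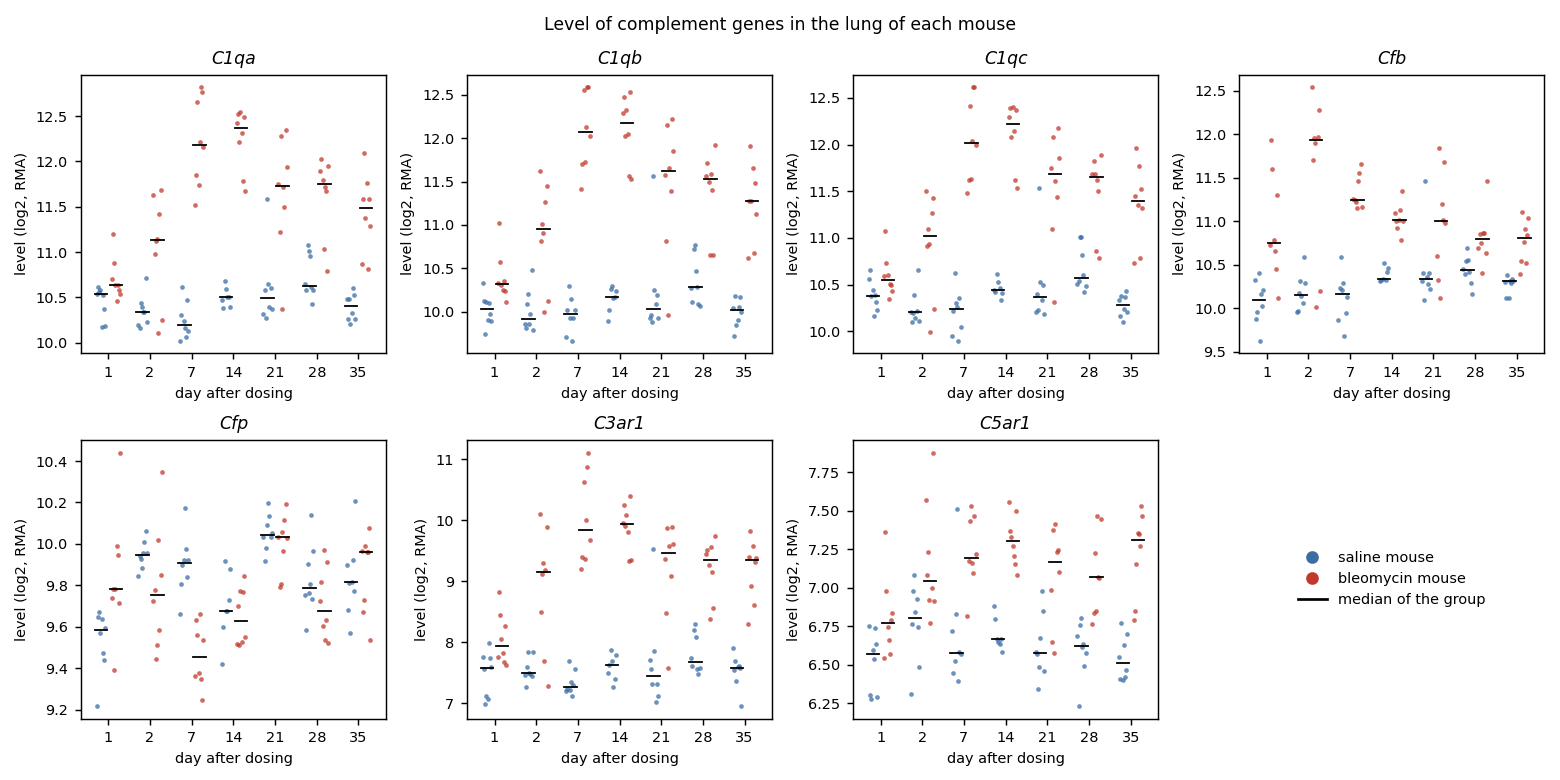
Level of the 7 genes (log2, RMA) in each mouse by day after dosing, with saline mice in blue, bleomycin mice in red and a line at the median of each group. The C1q chains and C3ar1 were highest on days 7 and 14, Cfb on day 2, and on day 21 1 saline mouse lies among the bleomycin mice and 1 bleomycin mouse among the saline mice.

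Every bleomycin mouse exceeded every saline mouse of its day for 5 of the 7 genes on day 7 (10.3% of all genes), for 6 on day 14 (10% of all genes), for 1 on day 28 (2.13%) and for 6 on day 35 (3.95%). On days 1, 2 and 21 the groups overlapped for all 7 genes, where 1.36%, 1.41% and 2.02% of all genes were separated upwards. Without both day 21 arrays of replicate number 4, the groups of that day were apart for C1qa, C1qb, C1qc and C3ar1, 4 of 7 genes against 8.41% of all genes. The plot of the levels by mouse shows these days.

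The 3 C1q chains rose from day 2 onwards, most on day 7, and were still about 2-fold higher on day 35. C1qa, C1qc and C1qb lie next to each other on mouse chromosome 4, with no other protein-coding gene between them in RefSeq GRCm38.p6. Sequences upstream of C1qb and C1qc, the neighbours whose starts the RefSeq table held, are shown because these chains rose together. They are the 250 bases before the start, on the minus strand of GRCm38.p6 (chr4:136886201-136886450 and chr4:136892915-136893164), 5′ to 3′, with matches to the PU.1 letters GAGGAA on either strand in capitals.
C1qb: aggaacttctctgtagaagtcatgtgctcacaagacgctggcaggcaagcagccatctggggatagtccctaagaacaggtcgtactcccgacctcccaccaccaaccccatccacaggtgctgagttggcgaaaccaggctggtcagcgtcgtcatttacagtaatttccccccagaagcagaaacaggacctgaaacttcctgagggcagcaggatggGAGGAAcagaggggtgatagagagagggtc
C1qc: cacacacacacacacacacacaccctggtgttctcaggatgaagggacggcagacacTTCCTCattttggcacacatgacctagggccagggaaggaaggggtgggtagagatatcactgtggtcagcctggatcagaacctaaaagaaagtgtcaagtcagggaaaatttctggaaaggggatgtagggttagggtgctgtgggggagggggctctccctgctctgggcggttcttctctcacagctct
The start used for C1qc lies inside the gene, whose end in that build is at 136892936, so part of its window is within the gene. The match began 30 bases before the start of C1qb and 193 bases before that of C1qc, where it reads on the other strand. Of 32851 RefSeq promoters of that length, 23.3% hold these letters. Neither window held the NF-kB motif, the interferon-stimulated response element, the STAT element TTCNNNGAA or the C/EBP letters TTGCNNCAA, which were in 1.41%, 2.98%, 7.02% and 1.74% of promoters.

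On day 1 C1qb ranged from 9.74 to 10.33 (median 10.04) in saline mice and from 10.11 to 11.03 (median 10.32) in bleomycin mice. On day 2 its saline mice spanned 9.79 to 10.48 (median 9.92) and its bleomycin mice reached 11.62 (median 10.96), the lowest 2 lying at saline levels. On both days the groups overlapped, with 4 and then 6 of 8 bleomycin mice above every saline mouse. By day 7 saline levels of 9.67 to 10.29 (median 9.97) faced bleomycin levels of 11.41 to 12.59 (median 12.08). Day 14 was similar, with 9.89 to 10.29 (median 10.17) in 7 saline mice and 11.53 to 12.53 (median 12.17) in bleomycin mice. The groups were fully apart on both of these days.

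On day 21 C1qb covered 9.88 to 11.56 (median 10.03) in saline mice and 9.96 to 12.22 (median 11.62) in bleomycin mice, both ends of the overlap being the arrays with replicate number 4. Day 28 gave 10.07 to 10.77 (median 10.28) in saline mice and 10.66 to 11.92 (median 11.53) in bleomycin mice, a narrow overlap. On day 35 saline mice of 9.72 to 10.18 (median 10.02) lay wholly below bleomycin mice of 10.62 to 11.90 (median 11.28).

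The difference in C1qb was 0.37 (SE 0.20) on day 1, which did not pass (limma, adjusted p = 0.151, or 0.0247 with a fit of that day alone), and 0.89 on day 2 (adjusted p = 0.000323). It reached 2.12 (SE 0.20, adjusted p = 1.72e-15) on day 7, a 4.36-fold increase, and was 1.95 on day 14, 1.23 on day 21, 1.02 on day 28 and 1.26 on day 35, with limma's adjusted p at most 7.49e-05 on these days. C1qa followed with 0.26, 0.69, 1.96, 1.74, 1.04, 0.87 and 1.03 on the 7 days in turn, and C1qc with 0.21, 0.67, 1.84, 1.65, 1.05, 0.81 and 1.08. Of these values only those of day 1 did not pass, with adjusted p of 0.291 for C1qa and 0.392 for C1qc. For C1qa the day 7 range was 10.02 to 10.61 (median 10.20) in saline mice and 11.51 to 12.82 (median 12.19) in bleomycin mice, and for C1qc 9.90 to 10.63 (median 10.24) and 11.48 to 12.61 (median 12.01). Neither range overlapped.

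With both arrays of replicate number 4 left out, the day 21 difference was 1.37 (SE 0.18) for C1qa, 1.63 (SE 0.18) for C1qb and 1.38 (SE 0.17) for C1qc, against 1.04, 1.23 and 1.05 with them. The other 7 bleomycin mice then lay above the other 7 saline mice for each chain.

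Of the alternative pathway genes, Cfb and Cfp had both risen on day 1, Cfb had its largest difference on day 2, and Cfp was lower by day 7. Cfb was 9.63 to 10.40 (median 10.10) in saline mice of day 1 and 10.12 to 11.94 (median 10.75) in bleomycin mice, 7 of 8 of them above every saline mouse. On day 2 its saline mice covered 9.95 to 10.59 (median 10.16) and its bleomycin mice 10.02 to 12.54 (median 11.93). Here 6 bleomycin mice, at 11.71 or more, stood clear of the saline mice, and the mice with replicate numbers 5 and 8, at 10.02 and 10.20, lay among them. Day 7 ranges were 9.69 to 10.60 (median 10.17) and 11.16 to 11.66 (median 11.25), and those of day 14 were 10.32 to 10.52 (median 10.34) and 10.78 to 11.34 (median 11.01). The groups did not overlap on either day, and the bleomycin mice were closer together than on day 2 (SD 0.194 and 0.164 against 0.938).

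Later, Cfb stood at 10.09 to 11.47 (median 10.34) in saline mice and 10.12 to 11.85 (median 11.00) in bleomycin mice of day 21. Day 28 levels were 10.17 to 10.70 (median 10.44) and 10.41 to 11.46 (median 10.80), and those of day 35 were 10.12 to 10.39 (median 10.31) and 10.40 to 11.11 (median 10.81). Groups overlapped on days 21 and 28 and were just apart on day 35. The difference was 0.87 (SE 0.20, adjusted p = 0.000388, limma) on day 1, 1.38 (adjusted p = 3.68e-08) on day 2, 1.22 (adjusted p = 1.71e-07) on day 7, 0.65 (adjusted p = 0.00722) on day 14 and 0.53 (adjusted p = 0.0274) on day 21. It was 0.38 (adjusted p = 0.17) on day 28 and 0.49 (adjusted p = 0.0525) on day 35 and did not pass. With a separate limma fit for each day Cfb passed on day 28 (adjusted p = 0.0254) and day 35 (adjusted p = 0.00124) and did not on day 21 (adjusted p = 0.104). Without both arrays of replicate number 4 the day 21 difference of Cfb was 0.79 (SE 0.20).

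Cfp was 9.22 to 9.67 (median 9.58) in saline mice of day 1 and 9.39 to 10.44 (median 9.78) in bleomycin mice, of which 7 lay above every saline mouse. On day 2 the order had turned, with 9.85 to 10.06 (median 9.95) in saline mice and 9.44 to 10.35 (median 9.75) in bleomycin mice, 5 of them below every saline mouse and 1 above. Day 7 had 9.66 to 10.17 (median 9.91) in saline mice and 9.25 to 9.66 (median 9.46) in bleomycin mice, 7 of them below every saline mouse. The difference was 0.32 (SE 0.09, adjusted p = 0.00392, limma) on day 1, -0.17 (SE 0.09, adjusted p = 0.169) on day 2 and -0.43 (SE 0.09, adjusted p = 2.44e-05) on day 7, and -0.12 to 0.03 from day 14 on, where no day passed. The day 21 value was -0.06 with and without the arrays of replicate number 4. With array weights day 2 passed too (-0.28, adjusted p = 0.00382).

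Cfp also differed among the saline groups, from a mean of 9.53 on day 1 to 10.06 on day 21 (F test in limma, adjusted p = 1.63e-05), as did 54.1% of all genes. For the other 6 genes that test gave adjusted p from 0.19 to 0.729. Set against all 55 saline mice, the day 1 difference of Cfp was 0.02 (adjusted p = 0.918). Whether the bleomycin mice of day 1 shared a difference of that day with its saline mice was not tested.

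**Figure D2:**
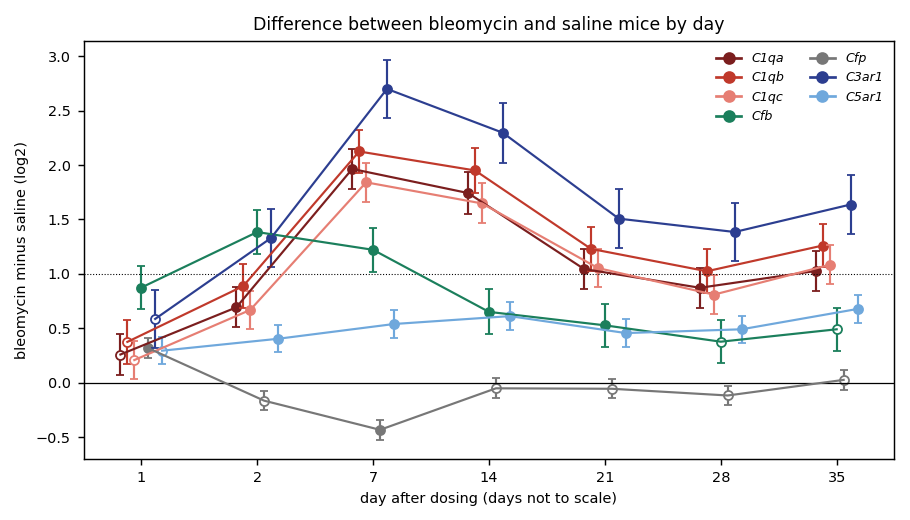
Difference between bleomycin and saline mice (log2, bleomycin minus saline, error bars SE of limma) of the 7 genes by day. Filled points have an adjusted p under 0.05 and the dotted line marks 2-fold. C3ar1 and the C1q chains peak on day 7, at 2.70 and 1.84 to 2.12, Cfb peaks on day 2 at 1.38, C5ar1 stays between 0.29 and 0.68, and Cfp crosses 0.

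By the probesets standing for the genes, C3ar1, a receptor gene, had the largest increase of the 7 genes on days 7 to 35. The other receptor gene, C5ar1, rose by less than 2-fold throughout. The 250 bases before the start of C3ar1 (chr6:122856158-122856407, minus strand of GRCm38.p6) are shown because they alone, of the 5 promoters of these genes in the RefSeq table, held the NF-kB motif, as did 1.41% of promoters. The match, read on the other strand and in capitals here, began 14 bases before the start.
C3ar1: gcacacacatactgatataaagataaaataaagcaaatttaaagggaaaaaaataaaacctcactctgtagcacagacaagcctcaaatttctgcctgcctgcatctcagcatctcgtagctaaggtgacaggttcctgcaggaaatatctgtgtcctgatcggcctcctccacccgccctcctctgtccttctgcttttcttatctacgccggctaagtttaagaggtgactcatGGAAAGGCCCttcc
The other 4 motifs were not in this window, and the windows of C5ar1 and Cfp held none of the 5. Most of the C5ar1 window, 16259339 to 16259588 on chromosome 7, lay within the gene, which ends at 16259540 in that build. No promoter of C1qa or Cfb was read. A match describes letters and was not tested as a site.

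C3ar1 lay between 6.98 and 7.98 (median 7.57) in saline mice and 7.63 and 8.83 (median 7.94) in bleomycin mice of day 1. On day 2 it was 7.26 to 7.84 (median 7.49) and 7.28 to 10.10 (median 9.15), with the bleomycin mice of replicate numbers 5 and 8 again at the saline level (7.69 and 7.28). From 7.12 to 7.69 (median 7.27) in saline mice it went to 9.21 to 11.11 (median 9.84) in bleomycin mice on day 7. On day 14 the ranges were 7.27 to 7.88 (median 7.63) and 9.34 to 10.40 (median 9.93). The lowest bleomycin mouse of days 7 and 14 was thus more than 1 log2 unit above the highest saline mouse.

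On day 21 C3ar1 spanned 7.01 to 9.53 (median 7.44) in saline mice and 7.58 to 9.89 (median 9.47) in bleomycin mice, and the groups overlapped through the arrays with replicate number 4. Day 28 had 7.48 to 8.31 (median 7.68) against 8.38 to 9.74 (median 9.36), and day 35 had 6.96 to 7.90 (median 7.58) against 8.29 to 9.82 (median 9.35). C3ar1 was the gene of the 7 whose groups were apart on day 28. They were also apart on that day for the C5ar1 probeset that was not the one standing for its gene. On day 35 the groups overlapped for another C3ar1 probeset, with 7 of 8 bleomycin mice above every saline mouse.

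The difference in C3ar1 was 0.59 (SE 0.27, adjusted p = 0.085, limma) on day 1 and did not pass, though it did with a fit of that day alone (adjusted p = 0.0295) and without both arrays of replicate number 4 (adjusted p = 0.0471). It rose to 1.33 (adjusted p = 5.19e-05) on day 2 and 2.70 (SE 0.27, adjusted p = 9.16e-15) on day 7, a 6.5-fold increase that ranked 19 of 15707 genes. It was 2.30 on day 14, 1.51 on day 21, 1.38 on day 28 and 1.64 on day 35, with limma's adjusted p at most 5.56e-05. Without both arrays of replicate number 4 the day 21 value was 2.00 (SE 0.25).

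For C5ar1 the smaller shift was seen in overlapping mice on most days. On day 7 it was 6.39 to 7.51 (median 6.58) in saline mice and 6.82 to 7.53 (median 7.19) in bleomycin mice, of which 1 exceeded every saline mouse. That overlap rested largely on the saline mouse with replicate number 5, at 7.51, as the next saline mouse was at 6.83. Saline mice of 6.58 to 6.88 (median 6.67) and bleomycin mice of 7.08 to 7.55 (median 7.30) were apart on day 14, as were those of 6.40 to 6.77 (median 6.51) and 6.79 to 7.53 (median 7.31) on day 35. The difference was 0.29 (SE 0.12, adjusted p = 0.0612, limma) on day 1, which did not pass, and then 0.40, 0.54, 0.61, 0.46, 0.49 and 0.68 on days 2 to 35, each with an adjusted p of at most 0.00942. The day 21 value was 0.51 (SE 0.13) without both arrays of replicate number 4. With a separate fit for day 2 that day did not pass (adjusted p = 0.0592), and 4 other settings passed day 1, with adjusted p from 0.035 to 0.0463.

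Where a gene had several probesets, all of them shifted the same way on each day. The 3 probesets of C3ar1 gave 2.70, 2.42 and 2.68 on day 7 but 1.64, 1.25 and 1.31 on day 35. Those of C1qb gave 2.12, 1.26 and 1.27 on day 7. The sizes of the C1qb increase and of the day 35 C3ar1 increase thus depend on the probeset. The 2 probesets of C5ar1 gave 0.54 and 0.40 on day 7.

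**Figure D3:**
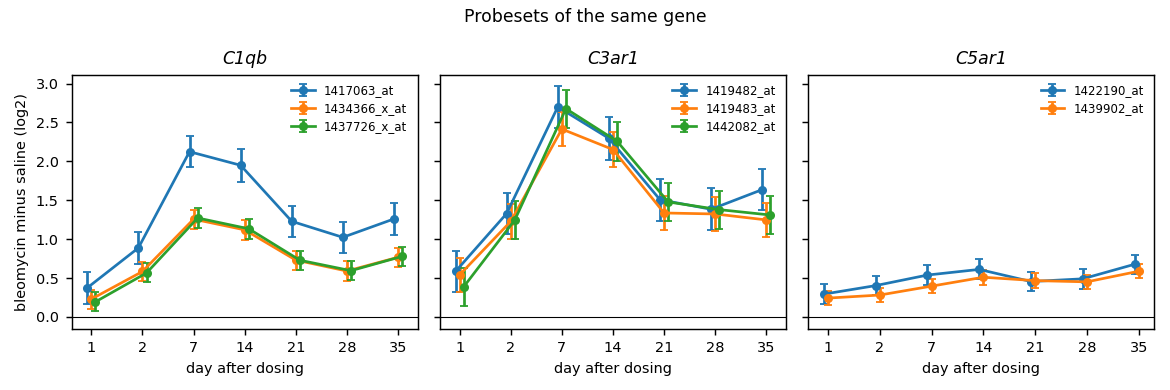
Difference between bleomycin and saline mice (log2, error bars SE of limma) for each probeset of C1qb, C3ar1 and C5ar1 by day. The probesets of a gene shift the same way on each day. For C1qb 2 probesets had smaller values (1.26 and 1.27 on day 7) than the third (2.12). On day 35 the C3ar1 probesets part, at 1.64, 1.25 and 1.31.

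Whether a gene's response changed from one day to the next was tested as the change of the bleomycin minus saline difference. From day 2 to day 7 the response grew for C1qa by 1.27 (SE 0.26, adjusted p = 0.00015, limma), for C1qb by 1.24 (SE 0.29, adjusted p = 0.00078), for C1qc by 1.17 (SE 0.25, adjusted p = 0.000276) and for C3ar1 by 1.37 (SE 0.38, adjusted p = 0.00554), 4 of 7 genes against 11.6% of all genes. The changes for Cfb (-0.16, adjusted p = 0.749) and C5ar1 (0.14, adjusted p = 0.656) did not pass. From day 1 to day 2 only the response of Cfp changed, and it fell by 0.48 (SE 0.13, adjusted p = 0.016), against 1.86% of all genes lower. Most of that change lay in the saline mice, whose median Cfp level was higher on day 2. The median of bleomycin mice was similar on both days. No gene of the 7 passed from day 7 to 14, where 0.286% of all genes were higher and 0.382% lower, from day 14 to 21 (2.92% and 3.71%), from day 21 to 28 (0.0255% and 0.0573%) or from day 28 to 35 (0.0255% and 0.0191%). From day 14 to 21 the responses of C1qa (-0.70, SE 0.27), C1qb (-0.72, SE 0.29), C1qc (-0.59, SE 0.26) and C3ar1 (-0.79, SE 0.39) were all smaller on day 21, with limma's adjusted p from 0.0944 to 0.217. Without both arrays of replicate number 4 these changes were -0.37, -0.32, -0.27 and -0.30 (adjusted p from 0.409 to 0.708). Those from day 21 to 28 were then -0.50, -0.61, -0.57 and -0.62 (adjusted p from 0.203 to 0.394), against -0.17, -0.21, -0.24 and -0.12 with them. None of these changes passed, and their sizes depended on the 2 arrays.

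Over the periods, the mean response of days 7 and 14 exceeded that of days 1 and 2 by 1.38 for C1qa, 1.41 for C1qb, 1.31 for C1qc and 1.54 for C3ar1 (limma, adjusted p at most 2.33e-06; 20.4% of all genes higher), and for Cfp it was lower by a difference of -0.32 (adjusted p = 0.0031; 15.8% of all genes lower). Cfb (-0.19, adjusted p = 0.484) and C5ar1 (0.23, adjusted p = 0.156) did not pass. From days 7 and 14 to days 21, 28 and 35 the response fell by 0.87 for C1qa, 0.87 for C1qb, 0.76 for C1qc and 0.99 for C3ar1 (adjusted p at most 0.00121; 14.9% of all genes lower), and by 0.76, 0.73, 0.65 and 0.82 without both arrays of replicate number 4 (adjusted p at most 0.00263). Cfb also fell, by 0.47 (SE 0.18, adjusted p = 0.0456), a call that was lost without the day 21 bleomycin array of replicate number 4 (adjusted p = 0.0671), without the saline one (adjusted p = 0.068), without both (adjusted p = 0.0989) and with array medians subtracted (adjusted p = 0.0642). Whether the course of one gene differed from that of another was not tested.

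Mice of the same group differed in several of these genes at once. Over all arrays of both treatments, deviations from the group mean correlated at r = 0.98 between C1qa and C1qc, 0.96 between C1qa and C1qb and 0.97 between C1qb and C1qc. C3ar1 correlated with the chains at 0.89 to 0.90, Cfb at 0.75 to 0.78 and C5ar1 at 0.41 to 0.50, whereas Cfp gave -0.21 to -0.16. These points share the array and its normalization, and they include the 2 arrays that stood apart. Without those the values for C3ar1 were 0.86 and for Cfb 0.71 to 0.75. Among saline mice alone C1qa and C1qc correlated at 0.95 (55 arrays) and C1qa and C5ar1 at 0.07, among bleomycin mice at 0.99 and 0.56 (56 arrays).

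**Figure D4:**
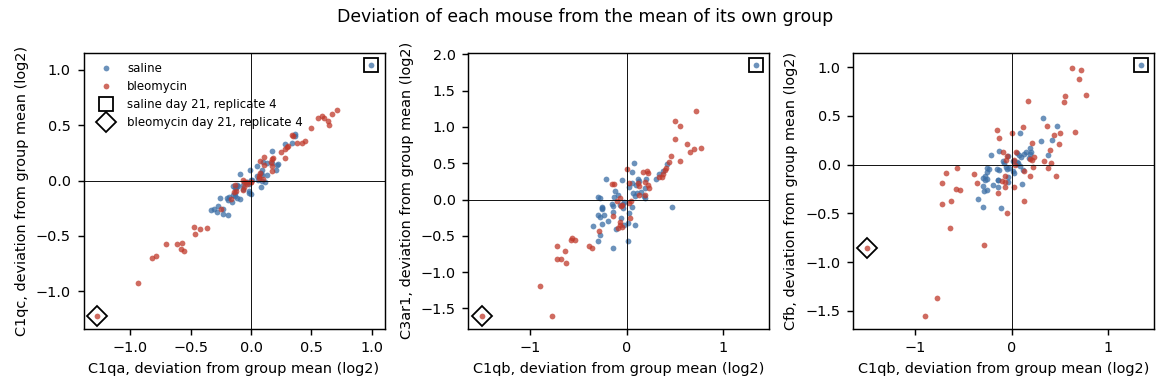
Deviation of each mouse from the mean of its own group (log2) for C1qa against C1qc, C1qb against C3ar1 and C1qb against Cfb, with saline mice in blue and bleomycin mice in red. The points fall close to a line for the C1q chains (r = 0.98) and less so for C1qb and Cfb (r = 0.78), and the 2 arrays of day 21 with replicate number 4, outlined, lie at opposite ends.

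By the same measure the gene outside the set closest to each C1q chain and to C3ar1 was Ms4a7, a macrophage membrane protein gene, with r from 0.91 to 0.94. Next came Aif1 for C1qa (0.90) and C1qc (0.89), Slc37a2 for all 3 chains (0.87 to 0.89), Ctsz for C1qb (0.89), and Fcgr1 (0.89) and Slamf9 (0.88) for C3ar1. Without the 2 arrays of day 21 Ms4a7 was still first for these 4 genes (0.89 to 0.93), and Ackr1, which had not been, was then among the first 3 for the chains (0.86 to 0.89). Nearest to Cfb were Il18bp (0.89), which encodes an interleukin-binding protein, Cxcl10 (0.89), an interferon-induced chemokine gene, and Lgals3bp (0.87). For C5ar1 they were Il1rn (0.76), the interleukin 1 receptor antagonist gene, Fcgr3 (0.74) and Pilra (0.72), and for Cfp Tmem161a (0.71), Slc35a5 (0.70) and Recql (0.69).

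Macrophage markers moved with these genes. Of 9 measured markers, Fcgr1 among them, 2, 5, 8, 8, 8, 7 and 7 rose on the 7 days in turn. Median differences were 0.17, 0.42, 1.14, 1.06, 0.97, 0.81 and 0.95. Csf1r fell on day 1, and Mertk on days 2 and 7. The mean level of the 9 markers was 9.92 to 10.25 in saline mice and 10.99 to 11.83 in bleomycin mice of day 7. The other days ran from 9.69 to 10.77 in saline and 9.99 to 11.66 in bleomycin mice. Across mice, deviations of that mean correlated at 0.86 to 0.91 with the C1q chains, 0.88 with C3ar1, 0.72 with Cfb, 0.58 with C5ar1 and -0.25 with Cfp. Of 9 markers of alveolar macrophages 2 rose and 4 fell on day 7, of 6 of monocytes 4 rose and 2 fell, and of 7 of neutrophils 1 rose and 3 fell. Shares of all genes that rose were 14.7%, 14.2%, 25.7%, 21.9%, 20.5%, 11.5% and 16.9% on the 7 days. On days 1, 2 and 7, 16.7%, 13.1% and 21.9% of all genes fell. The 2 of 9 and 1 of 7 that rose on day 7 thus lay near or below the share of all genes.

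Markers of some other lung cells moved too. Of all genes 25.7%, 21.9% and 20.5% rose and 21.9%, 19.7% and 18.9% fell on days 7, 14 and 21, and 13.1% fell on day 2. Of 6 T cell markers and of 7 airway epithelium markers none rose and 1 fell on day 7. Of 10 fibroblast markers 6 rose on each of days 7, 14 and 21, and 1, 2 and 2 fell. Their mean level was 10.32 to 10.70 in saline and 10.87 to 11.11 in bleomycin mice of day 7, and the groups were apart on that day and on day 14. Of 8 endothelial markers 7, 5 and 7 fell on days 7, 14 and 21, and their mean level on day 14 was 11.91 to 12.15 in saline and 11.61 to 11.89 in bleomycin mice, which were also apart. Of 6 alveolar type II markers 4 and 5 fell on days 7 and 14, and of 6 alveolar type I markers 5 fell on day 2. Across mice, the C1q chains and C3ar1 correlated at 0.60 to 0.65 with the fibroblast mean, at -0.66 to -0.54 with the endothelial mean, at -0.61 to -0.55 with that of alveolar type I and at -0.49 to -0.38 with that of alveolar type II markers. The part of cell numbers in the results was not tested.

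Of 46 further complement genes 29 were measured, and 11 rose and 6 fell on day 7, with a median difference of 0.03. The counts that rose and fell were 3 and 5 on day 1, 8 and 4 on day 2, 7 and 5 on day 14, 10 and 5 on day 21, 6 and 2 on day 28 and 7 and 3 on day 35. Without both arrays of replicate number 4 the day 21 counts were 8 and 4. Shares of all genes that rose were 14.7%, 14.2%, 25.7%, 21.9%, 20.5%, 11.5% and 16.9% on the 7 days, so that the 3 of 29 on day 1 and 7 of 29 on day 14 lay near or below the share of all genes. Shares of all genes that fell were 16.7%, 13.1%, 21.9%, 19.7%, 18.9%, 11.8% and 12.5% on the 7 days. On each day the count of the 29 that fell thus lay near or below that share. Of the 29, 5 changed over 2-fold on at least 1 day, each of them upwards. By day, increases over 2-fold were seen in 0, 0, 4, 4, 2, 1 and 1 of the 29. Shares of all genes with such increases were 0.376%, 0.949%, 2.85%, 2.41%, 1.14%, 0.573% and 0.649%.

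Among receptors these were Vsig4, which encodes a C3b receptor of resident macrophages, and Itgax, the alpha chain of complement receptor 4 and also one of the alveolar macrophage markers counted above. Vsig4 was 4.33 to 5.60 (median 4.75) in saline mice and 6.05 to 8.18 (median 7.08) in bleomycin mice of day 7, ranges that did not overlap. Vsig4, and among the regulators Csmd1 and Cfi, were dim, with 6.1%, 16.5% and 24.2% of genes at a lower mean level. Their saline levels were not tested against the background of the array, so that the sizes of their differences are less certain. The difference of Vsig4 was 2.28 (SE 0.24, adjusted p = 6.46e-14, limma) on day 7 and 1.03 on day 14. Itgax differed by 0.89 on day 7, 1.02 on day 14 and 1.14 (SE 0.14, adjusted p = 7.03e-11) on day 21.

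Among regulators, Cfi, the gene of the protease factor I that cleaves C3b, rose by 1.50 on day 7, 1.53 (SE 0.17, adjusted p = 5.52e-12, limma) on day 14 and 1.45 on day 21. On day 14 it was 6.06 to 6.44 (median 6.26) in saline and 7.48 to 8.09 (median 7.75) in bleomycin mice, which were fully apart. Csmd1, a membrane protein gene with complement control domains, rose by 1.86 on day 7, 2.19 (SE 0.25, adjusted p = 1.08e-11) on day 14 and 1.26 on days 28 and 35. Within the same list Vtn, for vitronectin, an inhibitor of the terminal complex, fell on days 7 to 35 by 0.48 to 0.91, and Clu and Susd4 rose on these days by 0.24 to 0.57.

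Of the lectin pathway genes Fcna, for ficolin A, rose by 1.40 (SE 0.28, adjusted p = 1.37e-05, limma) on day 7, with 6.42 to 8.35 (median 6.96) in saline and 7.77 to 9.93 (median 8.47) in bleomycin mice, which overlapped. Mbl1, for a mannose-binding lectin, fell on days 1, 7, 14 and 28 by 0.33 to 0.59. No gene of the 4 alternative and terminal pathway genes measured rose on any day, and Hc, which encodes C5, fell by 0.66 on day 1, 0.61 on day 2, 0.67 on day 7 and 0.29 on day 14. Cr2, the complement receptor 2 gene of B cells, fell by 0.88 on day 21 and 0.94 on day 35. On these days 6 of 6 B cell markers, Cr2 among them, fell, against 18.9% and 12.5% of all genes.

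**Figure D5:**
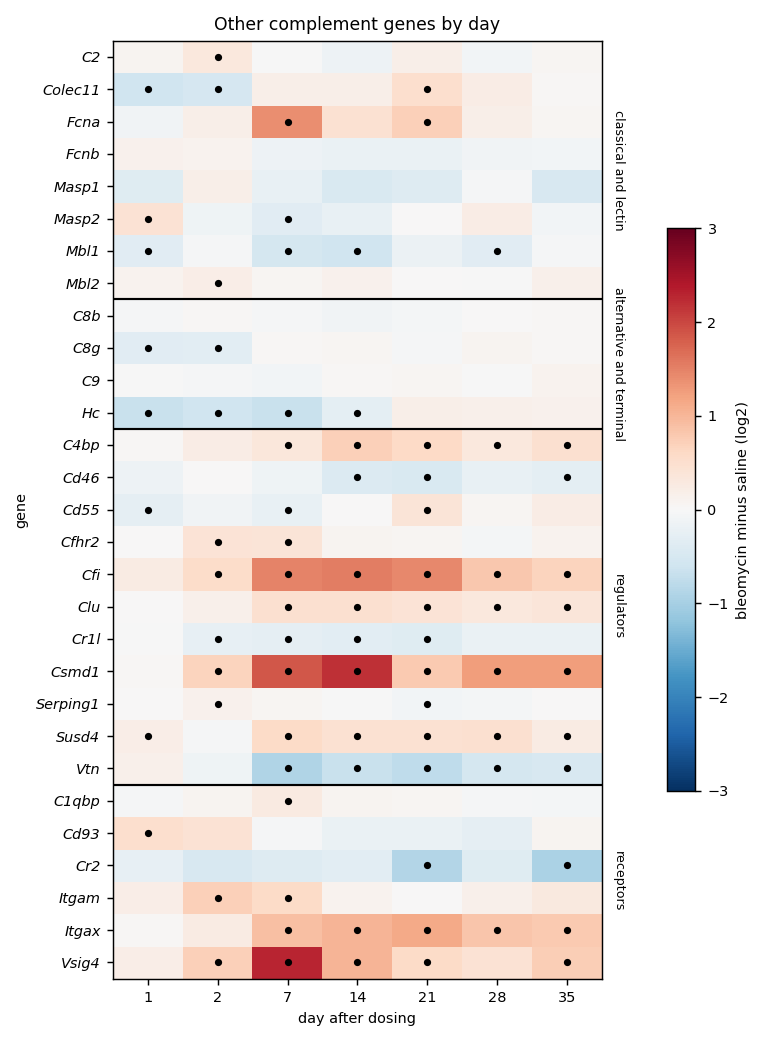
Difference between bleomycin and saline mice (log2, colour) of the 29 other complement genes by day, grouped by role, with a dot where the adjusted p was under 0.05. Vsig4, Csmd1, Cfi, Fcna and Itgax show the increases over 2-fold, up to 2.28 for Vsig4 on day 7, and Hc and Vtn are lower, by up to 0.67 and 0.91 on day 7.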

How the data were processed

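Gene expression was measured in whole lungs, 1 mouse per array. Per the paper's methods, the authors amplified the RNA, discarded probes whose place in the genome was ambiguous or superseded (build not given in the sources used here) and normalized the arrays by RMA. The deposited log2 values ran from 2.75 to 14.7, and medians of arrays from 8.61 to 8.73. No 2 arrays were identical (highest correlation 0.997). The number of arrays limits the precision.

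Groups were taken from the labels. Probesets of several genes (314) or of no gene named here (4503) were left out, and the probeset with the highest variance stood for a gene. One mean per group (14 groups) was fitted with limma 3.58.1 in R 4.3.3 (lmFit, eBayes), with contrasts within and between days, and adjustment by Benjamini and Hochberg over 15707 genes. The script was tested on simulated data. Alternatives were the probeset of highest mean level, the mean of probesets, array weights, leaving out the 30% dimmest genes, quantile normalization applied again, array medians set to 0, no moderation, a fit for each day alone, the saline mice of all days together as control, replicate number as a block and arrays left out. The genes named are the members, other complement genes changed over 2-fold or named as examples after their values were seen, and the 3 genes closest to each member. Members and lists were chosen with earlier results of these data known. Labels do not name separate cohorts, and the cause of differences among saline days was not tested.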

Additional observations from a re-analysis of the deposited data

Results flagged for a closer look

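In 7 of 98 combinations of gene and group the highest mouse stood apart from the rest of its group by Dixon's criterion, and chance gives about 1 in 20. Of these 5 were from 1 array, the library labelled saline of day 21 with replicate number 4, at 11.59 for C1qa, 11.56 for C1qb, 11.53 for C1qc, 9.53 for C3ar1 and 11.47 for Cfb, where the next saline mouse was at 10.64, 10.25, 10.53, 7.85 and 10.41. In that array Cxcl10 was 10.55, against 7.85 to 8.60 in the other saline mice, and Ms4a7 was 11.57, against 8.69 to 9.14, while Cfp, at 10.09, and C5ar1, at 6.49, lay within the range of the others. C5ar1 of the saline mouse of day 7 with replicate number 5 was 7.51, where the next was at 6.83. Cfb of the bleomycin mouse of day 28 with replicate number 8 was 11.46, where the next was at 10.87.

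Between days, the response of Cfp fell in limma from day 1 to day 2 (-0.48), mostly through higher saline levels on day 2. Responses of C1qa (1.27), C1qb (1.24), C1qc (1.17) and C3ar1 (1.37) grew from day 2 to day 7. Between periods, responses changed from days 1 and 2 to days 7 and 14 for C1qa (1.38), C1qb (1.41), C1qc (1.31), C3ar1 (1.54) and Cfp (-0.32). From then to days 21, 28 and 35 they changed for C1qa (-0.87), C1qb (-0.87), C1qc (-0.76), C3ar1 (-0.99) and Cfb (-0.47).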

How the results depend on the processing

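No difference that passed, as reported or under the alternative, changed sign. Some that passed in neither did, such as the change of Cfb from day 14 to 21 (-0.12, or 0.14 without both arrays of replicate number 4). Of fold changes of the 7 genes, 1416 stayed on their side of the threshold, 25 passed that had not and 7 no longer passed. C5ar1, with 29.3% of genes at a lower mean level, was not tested without the 30% dimmest genes. Counts of members in that setting did not include it. Of the counts of genes 694 stayed within 1.5 times and 30 did not. The cause was not tested unless given. Members that rose on day 1 were 4 with 1 fit per day and 1 with all saline arrays as control. Over 2-fold on day 28 were 1 with the probeset of highest mean level, 1 with the mean of probesets and 4 with all saline arrays, and on day 35 there were 2 with all saline arrays and 2 to 4 when arrays were left out, the 2 being without the bleomycin mouse of replicate number 3. Array weights gave 2 members whose response grew from day 1 to day 2 and 1 that fell on day 2, and all saline arrays 1 that fell on day 14. From days 7 and 14 to the later days 1 member grew (Cfp) under quantile normalization, array medians subtracted, array weights and the replicate block. With the probeset of highest mean level 2 members differed among saline days.

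Of the other complement genes, without the 30% dimmest genes (fewer genes tested) 2, 5, 3, 5, 3 and 3 rose on days 2, 7, 14, 21, 28 and 35. With the probeset of highest mean level 1 rose and 3 fell on day 1, 2 fell on day 2 and 4 on day 28. With all saline arrays 9, 4 and 5 fell on days 14, 28 and 35, and with array weights 8 and 4 on days 14 and 28.

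Deviations of bleomycin and saline mice of a day with the same replicate number correlated at -0.33 to 0.41 (median 0.06, 23 of 55 pairs over 0.1). Mice with different numbers were not compared, so whether the numbers pair the mice cannot be told. With the replicate block the change of Cfp to the later days passed, 0.20 (adjusted p = 0.0489, limma), against 0.19 (adjusted p = 0.0705) without it. Arrays left out other than the bleomycin mouse of day 35 were chosen after the data were seen. One fit per day and all saline arrays could not be used for changes between days.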
